A study of Mus musculus with 6 samples.

Results

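The genes described here are the colony stimulating factors Csf1, Csf2 and Csf3, the growth factor Kitl, and the receptors Csf1r, Csf2ra, Csf2rb, Csf3r, Flt3 and Kit. They were chosen by symbol as 10 genes, of which 8 were among the 20140 genes listed in the count table. All 8 passed the filter on low counts, and the levels of Csf2 and Csf3 were not analysed here because they had no row. Bulk polyadenylated RNA of whole mouse liver was measured on day 21, with 2 livers in each of 3 groups. Sham livers came from mice that received PBS instead of tumor cells. Premetastatic niche (PMN) livers came from mice with CT26 cells implanted in the cecum, and metastasis livers came from mice given CT26 cells through the spleen. CT26, a line of mouse colorectal carcinoma cells, derives from BALB/c mice, the strain used in the study for the CT26 models, at 6 to 10 weeks of age. PBS and CT26 stand in the labels, which otherwise name the groups intra-C, intra-S and control with sham in the library names, and the sites of implantation were taken from the study's methods. Tumor site and route of implantation changed together with the group, and nothing in the labels ties a liver to a litter, a day or a batch.

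Colony stimulating factors are secreted proteins that control how many myeloid cells are made and how long they live. CSF1 (M-CSF) acts on monocytes, macrophages and the resident Kupffer cells of the liver through the receptor tyrosine kinase CSF1R, which also binds IL-34. CSF3 (G-CSF) acts on neutrophils and their precursors through CSF3R. CSF2 (GM-CSF) binds an alpha chain, CSF2RA, which joins the common beta chain CSF2RB. KIT and FLT3 are receptor tyrosine kinases related to CSF1R. KIT, with its ligand KITL (stem cell factor), marks blood progenitors and mast cells, and FLT3, with its ligand FLT3L, marks progenitors and dendritic cells. G-CSF was among the circulating proteins followed in the study, and the comparisons below ask how the RNA of these ligands and receptors differed in liver with and without a tumor.

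Library totals lay between 32838321 and 43368309 counts. CPM here means counts relative to a fixed library total, after each total was scaled by the TMM method of edgeR, and TPM means the deposited values that are also scaled by gene length. A gene at 0 counts may still have had up to 3, worth 0.0679 to 0.0928 CPM, a limit for counting error alone. The share of counts held by the 100 most abundant genes was 44.2% and 44.9% in sham livers and 54.9% to 59.7% in tumor livers. The livers of 1 group differed beyond sampling noise (chi-square over degrees of freedom of 27.2, 80.9 and 372 in sham, PMN and metastasis livers), so none was taken for a repeat of another. Genes were tested by the quasi-likelihood test of edgeR in 1 fit of all 6 livers, with Benjamini-Hochberg adjustment over 16370 genes, and were called higher or lower at an adjusted p under 0.05. These p-values measure the spread between single livers, and whole-liver RNA cannot tell more cells of a type from more RNA per cell.

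Of the 6 receptor genes, 5 were called higher in PMN livers and 4 in metastasis livers, and Flt3 was called in neither. Only Csf1 and Kitl of the ligand genes had a row, and neither was called in either comparison. In PMN livers, Csf1r, Csf2ra, Csf2rb, Csf3r and Kit rose, by 3.44-fold to 15.9-fold. In metastasis livers, Csf1r, Csf2ra, Csf2rb and Csf3r rose, by 2.78-fold to 11.8-fold. The beta chain Csf2rb moved furthest of the 8 genes in both comparisons, followed by Csf3r. Csf1, the ligand of CSF1R, had values in both tumor groups that overlapped those of sham livers. Kitl, in contrast, was above both sham livers in every tumor liver. Its rises of 2.98-fold and 2.54-fold missed the threshold (edgeR, adjusted p = 0.0692 and 0.0841), while the smallest called receptor rise was 2.78-fold.

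**Figure D1:**
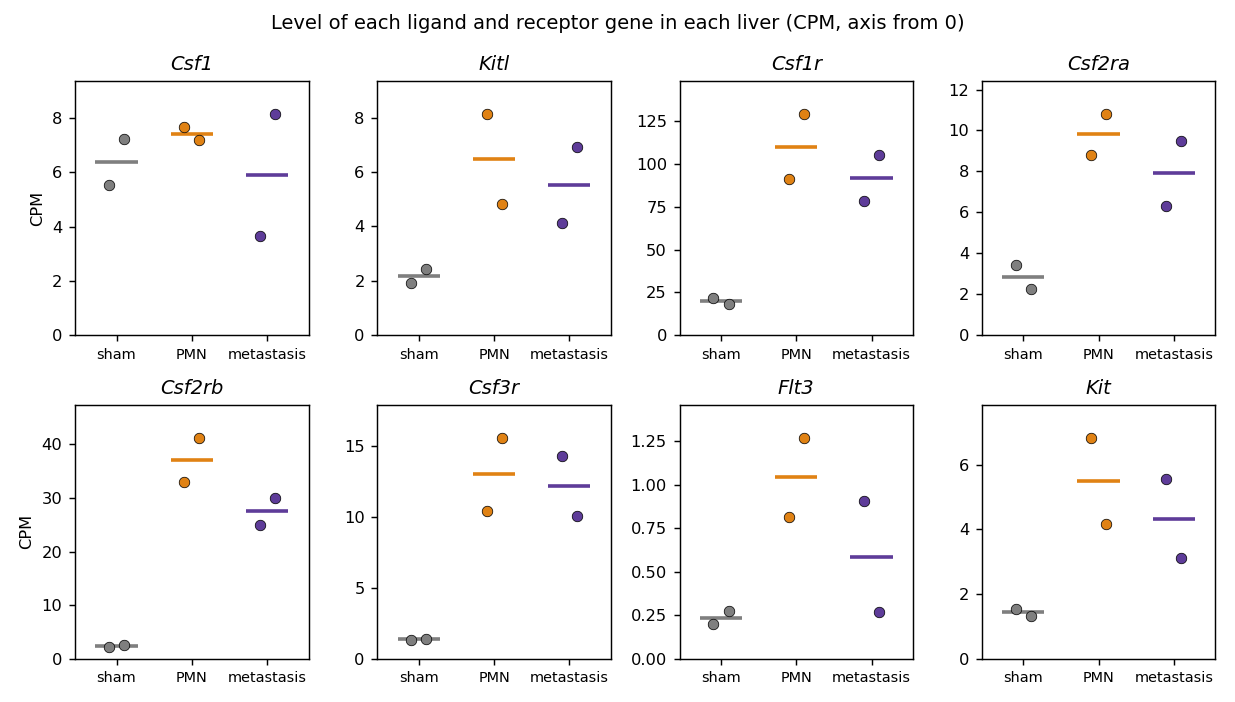
Level of the 8 listed genes in each liver, in CPM on linear axes that start at 0. Points are single livers and bars are the mean of 2 livers per group. Both tumor groups lie above both sham livers for Kitl, Csf1r, Csf2ra, Csf2rb, Csf3r and Kit, whereas Csf1 overlaps.

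Csf1r encodes the receptor for CSF1 and IL-34 and lies at chr18:61105572-61131139 (GRCm38, the assembly also called mm10). It measured 21.8 and 18.2 CPM in sham livers, 91.3 and 129 CPM in PMN livers, and 78.4 and 105 CPM in metastasis livers. Every tumor liver was above both sham livers, and the tumor groups overlapped each other. The log2 fold change was 2.46 ± 0.28 (SE) in PMN against sham livers (edgeR, adjusted p = 0.00949) and 2.20 ± 0.28 in metastasis against sham livers (adjusted p = 0.0100). In the gene models of GENCODE M21, 873 exon bases of Csf1r, or 15.1% of them, overlap exons of Hmgxb3 on the other strand. Since the library kit did not mark strand, reads there cannot be told apart. Hmgxb3 measured 12.4 and 9.24 CPM in sham, 16.9 and 12.4 CPM in PMN, and 15.6 and 10.9 CPM in metastasis livers. Its own changes against sham livers were 0.44 and 0.29 on the log2 scale and were not called (edgeR, adjusted p = 0.383 and 0.540).

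Csf3r, the G-CSF receptor of the neutrophil lineage, lies at chr4:126023441-126044975. It measured 1.33 and 1.40 CPM in sham livers, 10.4 and 15.6 CPM in PMN livers, and 14.3 and 10.1 CPM in metastasis livers. The sham livers differed little, and each tumor liver was well above both. The log2 fold change was 3.25 ± 0.33 in PMN livers (edgeR, adjusted p = 0.00738) and 3.15 ± 0.33 in metastasis livers (adjusted p = 0.00670). Of the 50-base windows along the annotated transcripts of Csf3r, 10.7% also occur in transcripts of other genes, 325 of these 395 windows in 1 gene and the rest spread over many, so reads from these stretches may have been left out of the counts of uniquely mapped reads.

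Csf2rb, at chr15:78325800-78351001, encodes the beta chain used by the receptors for GM-CSF, IL-3 and IL-5. It measured 2.12 and 2.54 CPM in sham livers, 33.0 and 41.2 CPM in PMN livers, and 25.0 and 30.1 CPM in metastasis livers. Neither tumor group overlapped the sham group, and both metastasis livers were below both PMN livers. The log2 fold change was 3.99 ± 0.25 in PMN livers (edgeR, adjusted p = 0.00543) and 3.56 ± 0.24 in metastasis livers (adjusted p = 0.00443). Csf2ra, the alpha chain that gives the GM-CSF receptor its specificity, lies at chr19:61217191-61228461. It measured 3.45 and 2.24 CPM in sham, 8.81 and 10.8 CPM in PMN, and 6.33 and 9.47 CPM in metastasis livers. Its change was smaller than that of the beta chain, at 1.78 ± 0.35 (adjusted p = 0.0352) and 1.47 ± 0.34 (adjusted p = 0.0450) on the log2 scale.

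Mice carry a close copy of the beta chain gene, Csf2rb2, which encodes a beta chain specific for the IL-3 receptor and lies at chr15:78282507-78305721. Because the copy bears on what the Csf2rb counts mean, a stretch of both genes is shown, with the bases that differ in capitals. It covers bases 24 to 83 of the longest open reading frame of each gene in the GENCODE M21 transcripts, read 5′ to 3′.
Csf2rb: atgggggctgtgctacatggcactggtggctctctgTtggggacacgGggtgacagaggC
Csf2rb2: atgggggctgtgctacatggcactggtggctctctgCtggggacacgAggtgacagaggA
Over 2631 aligned bases these reading frames were 95.2% identical, and of the 50-base windows along the annotated transcripts, 12.3% of those of Csf2rb and 18.4% of those of Csf2rb2 occur in the other gene. Reads from such windows cannot be assigned to 1 of the copies, so both counts are uncertain to that extent. Csf2rb2 measured 0.641 and 0.272 CPM in sham livers, 11.3 and 15.9 CPM in PMN livers, and 12.0 and 16.0 CPM in metastasis livers. It rose by 4.89 ± 0.47 in PMN livers (edgeR, adjusted p = 0.00702) and by 4.94 ± 0.47 in metastasis livers (adjusted p = 0.00579) on the log2 scale. On the TPM scale, the level of Csf2rb per Csf2rb2 was 3.22 and 9.07 in sham livers, 2.85 and 2.52 in PMN livers and 2.02 and 1.82 in metastasis livers.

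Kit, at chr5:75574987-75656722, measured 1.53 and 1.34 CPM in sham livers, 6.82 and 4.18 CPM in PMN livers, and 5.54 and 3.12 CPM in metastasis livers. All 4 tumor livers were above both sham livers. The change was 1.94 ± 0.43 on the log2 scale in PMN livers (edgeR, adjusted p = 0.0464) and 1.59 ± 0.42 in metastasis livers, where it was not called (adjusted p = 0.0617). It was called there without the second metastasis liver (1.95, adjusted p = 0.00808), and also with DESeq2. Whether the change of Kit differed between the tumor groups was tested directly, and the difference of -0.35 had a 95% interval of -1.33 to 0.63. Flt3, at chr5:147330741-147400489, was the scarcest of the 8 genes, with 8 and 12 counts in sham livers, 32 and 41 in PMN livers, and 31 and 11 in metastasis livers. In CPM these were 0.197 and 0.272, 0.815 and 1.27, and 0.904 and 0.270. Both PMN livers were above sham livers, while 1 metastasis liver lay at the sham level. Its log2 fold changes of 2.13 ± 0.79 and 1.30 ± 0.78 were not called (edgeR, adjusted p = 0.146 and 0.313; the former was 0.0473 without the second metastasis liver), and at this depth their 95% intervals ran from 0.25 to 4.02 and from -0.58 to 3.18.

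Among the ligands, Kitl, at chr10:100015615-100100416, measured 1.92 and 2.42 CPM in sham livers, 8.12 and 4.83 CPM in PMN livers, and 4.11 and 6.92 CPM in metastasis livers. The tumor groups were above sham livers in every liver. The log2 fold changes of 1.58 ± 0.41 and 1.34 ± 0.41 had unadjusted p-values of 0.00714 and 0.0144 and did not pass adjustment (edgeR, adjusted p = 0.0692 and 0.0841). Without the first metastasis liver both were called (adjusted p = 0.0122 and 0.0235), and without the second the PMN change was (adjusted p = 0.0138). Csf1, at chr3:107741048-107760469, measured 5.54 and 7.22 CPM in sham livers, 7.66 and 7.18 CPM in PMN livers, and 3.65 and 8.15 CPM in metastasis livers. Its log2 fold changes were 0.22, with a 95% interval of -0.75 to 1.19, and -0.11, with an interval of -1.08 to 0.86. The value in metastasis livers rested on which liver was kept, at 0.36 without the first and -0.81 without the second, and neither was called.

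The second ligand of CSF1R and the ligand of FLT3 gave no call either. Il34, which encodes IL-34, measured 2.29 and 1.40 CPM in sham, 2.60 and 1.95 CPM in PMN, and 3.35 and 2.53 CPM in metastasis livers, with log2 fold changes of 0.30 and 0.67 (edgeR, adjusted p = 0.680 and 0.318). Flt3l, the only known ligand of FLT3, measured 3.42 and 3.10 CPM in sham, 1.73 and 1.73 CPM in PMN, and 0.817 and 2.50 CPM in metastasis livers. Every tumor liver was below both sham livers, and the log2 fold changes of -0.91 and -0.97 were not called (edgeR, adjusted p = 0.331 and 0.281). Without the second metastasis liver, the change in metastasis livers was -1.99 and was called (adjusted p = 0.0131), and without the first it was -0.38 and was not (adjusted p = 0.533). Of the exon bases of Flt3l, 22.1% overlap Gm45713 on the same strand, so its count is uncertain to that extent.

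**Figure D2:**
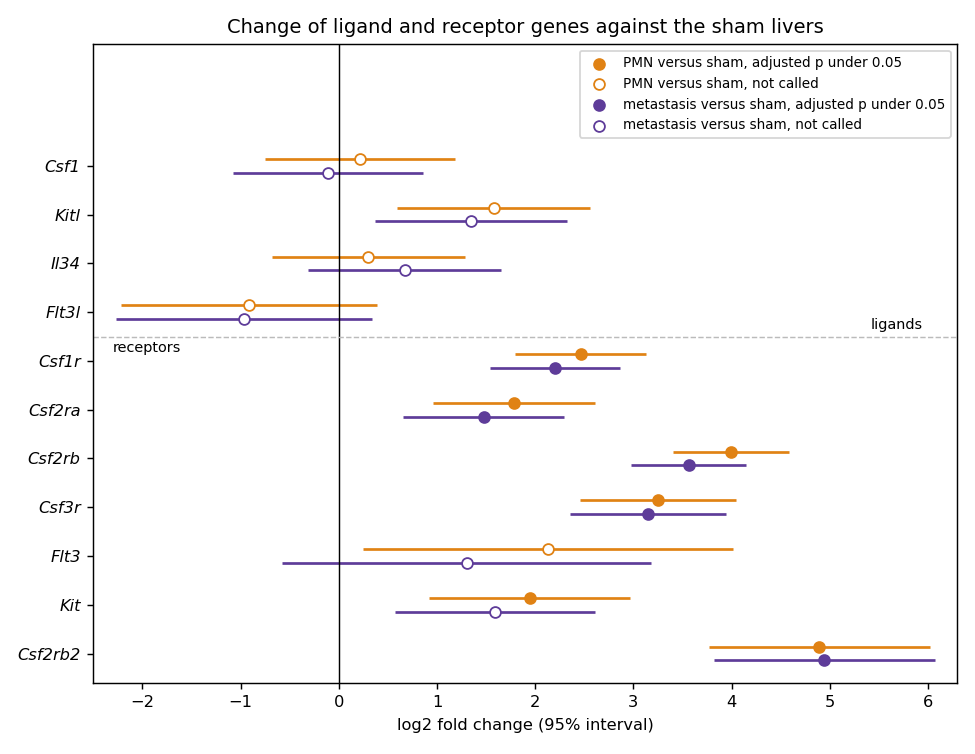
Log2 fold change against sham livers (x axis) of the ligand genes (above the dashed line) and receptor genes (below it), with Csf2rb2, Il34 and Flt3l added. Points are edgeR estimates, bars are 95% intervals and filled points have an adjusted p under 0.05. The filled points are all receptors. The interval of Csf1 spans 0 in both comparisons, and that of Kitl, which was not called, lies above 0 in both.

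In PMN against sham livers, 5 of the 8 genes were called higher and 0 lower, where 4.92% of all tested genes were called higher and 2.38% lower. Before adjustment, 7 passed a p under 0.05 upward and 0 downward, beside 15.2% and 11.8% of all tested genes. In every PMN liver, 7 of the 8 were above both sham livers, as were 34.4% of all tested genes. The median log2 fold change of the 8 genes was 2.04, and that of all tested genes was 0.01. These calls rested on both livers of each group. The count was 0 without either sham liver, when no gene of the whole table was called, 2 without the first PMN liver (Csf2rb and Csf3r) and 1 without the second PMN liver (Csf2rb). It was 3 with library totals not scaled by TMM or with limma on TPM values, where Csf2ra and Kit were lost.

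In metastasis against sham livers, 4 of the 8 genes were called higher and 0 lower, where 6.78% of all tested genes were called higher and 3.95% lower. Before adjustment, 6 passed that limit upward and 0 downward, beside 17.2% and 13% of all tested genes. In every metastasis liver, 6 of the 8 were above both sham livers, as were 30.4% of all tested genes. The median log2 fold change of the 8 genes was 1.53, and that of all tested genes was 0.04. The count was again 0 without either sham liver. Csf2ra was the least stable of the 4 calls, since it was also lost with only the metastasis and sham livers in the fit, with library totals not scaled by TMM, with limma on TPM values and without either PMN liver, which left 3 each time. Both comparisons share the sham livers and are therefore not independent of each other.

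The tumor groups were compared directly as well. None of the 8 genes was called, 0 had an unadjusted p under 0.05, and 0 of all 16370 genes was called (0% higher and 0% lower) by edgeR, where the smallest adjusted p was 0.113. Before adjustment, 1144 genes of the whole table (6.99%) were higher and 1049 (6.41%) lower at a p under 0.05. DESeq2 called 240 genes higher and 284 lower and likewise 0 of the 8. Without the first metastasis liver, edgeR called 24 genes higher and 31 lower, and without the second it called 1312 higher and 1572 lower, with 0 of the 8 in both cases. Csf2rb had the smallest p of the 8 genes, with a difference of -0.43 and a 95% interval of -0.95 to 0.09. The intervals of Csf1r (-0.90 to 0.37), Csf3r (-0.81 to 0.62) and Csf2ra (-1.11 to 0.49) allow a difference of up to about 1 on the log2 scale in 1 direction, so these data do not show that the groups were alike.

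Levels of different genes were compared per length, on the TPM scale. Csf1r was the most abundant of the 8 genes in all 3 groups, at 11.6 ± 1.53 TPM (SD, n = 2) in sham, 56.5 ± 16.3 TPM in PMN and 43.6 ± 11.0 TPM in metastasis livers. In sham livers Csf1 was second at 3.24 ± 0.597 TPM followed by Csf2rb at 1.07 ± 0.134 TPM. Csf2rb was second in PMN livers at 15.1 ± 3.06 TPM and in metastasis livers at 10.4 ± 1.86 TPM, followed by Csf3r at 4.42 ± 1.43 and 3.79 ± 0.738 TPM. Neighbours in the order overlapped in range for Kitl, Csf2ra and Kit in all groups and, in metastasis livers, from Csf3r down to Kit. Flt3 was last in all 3 groups and overlapped with none, at 0.0884 ± 0.0197 TPM in sham, 0.348 ± 0.122 TPM in PMN and 0.177 ± 0.129 TPM in metastasis livers.

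The make-up of the receptor RNA also differed between sham and tumor livers. The 6 receptors summed to 15.7 and 13.4 TPM in sham livers, 65.7 and 95.0 TPM in PMN livers, and 52.4 and 69.4 TPM in metastasis livers. Csf1r made up 80.8% and 78.5% of that sum in sham livers, 68.5% and 71.6% in PMN livers, and 68.3% and 74.1% in metastasis livers. Csf1r was thus the main receptor RNA in each liver, with a lower share in all 4 tumor livers than in both sham livers. Csf2rb took 6.24% and 8.71% in sham livers, 19.6% and 18.1% in PMN livers, and 17.3% and 16.8% in metastasis livers. Csf3r took 3.26% and 4.02%, 5.19% and 5.71%, and 8.23% and 4.71%, in the same order. The shares of both were higher in every tumor liver than in every sham liver. The share of Csf2ra was lower in every tumor liver, from 5.23% and 3.97% in sham to 2.70% and 2.45% in PMN and 2.26% and 2.73% in metastasis livers, although its own level rose. The share of Kit was likewise lower in every tumor liver than in either sham liver, at 3.98% and 4.06% in sham, 3.60% and 1.63% in PMN, and 3.40% and 1.55% in metastasis livers. With 2 livers against 2, an exact two-sided permutation test cannot give a p below 0.333, and no other test of the shares was run.

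**Figure D3:**
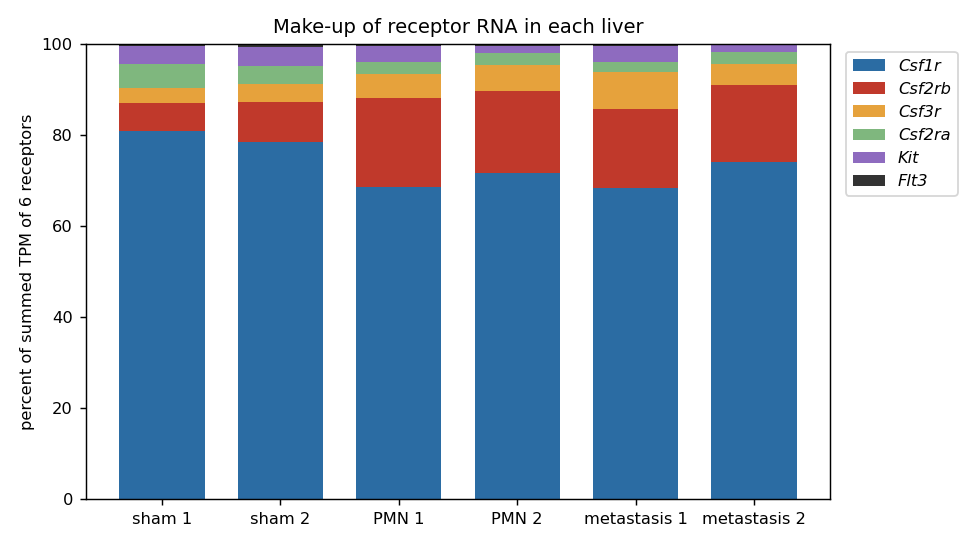
Share of each receptor in the summed TPM of 6 receptors (y axis, percent) in each of the 6 livers. Csf1r is at 80.8% and 78.5% in sham livers and between 68.3% and 74.1% in tumor livers, and Csf2rb is at 6.24% and 8.71% and between 16.8% and 19.6%.

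Ratios within a receptor system followed from these levels. On the TPM scale, the level of Csf2rb per Csf2ra was 1.19 and 2.20 in sham livers, 7.26 and 7.41 in PMN livers, and 7.66 and 6.16 in metastasis livers. The level of Csf1r per Csf1 was 4.49 and 2.87, 13.6 and 20.6, and 24.6 and 14.7, in the same order. In both ratios every tumor liver was above every sham liver. Kitl per Kit was 1.20 and 1.73 in sham, 1.13 and 1.10 in PMN, and 0.706 and 2.11 in metastasis livers, so that both PMN livers were just below both sham livers and the metastasis livers spanned all others. Flt3l per Flt3 was 43.6 and 28.7 in sham livers, 5.33 and 3.43 in PMN livers, and 2.27 and 23.3 in metastasis livers, and its denominator rests on at most 41 counts.

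Over the 6 livers, the levels of Csf1r, Csf2ra, Csf2rb and Csf3r followed each other. On the log2 CPM scale, Pearson's r of Csf1r was 0.99 with Csf2rb, 0.98 with Csf2ra and 0.97 with Csf3r. Flt3 was less alike, with r of 0.65 to 0.82 with the other receptors, Kit reached 0.82 to 0.91, and the ligand Kitl reached 0.90 with Csf2rb, whereas r of Csf1 with each of the other 7 genes lay between -0.20 and 0.37. Since both sham livers were the lowest in Csf1r, Csf2ra, Csf2rb and Csf3r, these values largely restate the difference from sham livers, and the libraries share depth and scaling. Among 12673 genes compared, those most like Csf3r were Mrc1, Stk10 and Ncf1, and those most like Csf1r were Dock2, Flna and Siglece, with r of at least 0.996. Mrc1 encodes the macrophage mannose receptor and Ncf1 a subunit of the phagocyte NADPH oxidase. Asah1, Rasa1 and Msn were most like Csf2rb, Sec24d, Lpxn and Serpina3i most like Csf2ra, and Hnrnph2, Arl15 and Sirt1 most like Kit. Tra2b, Tent5a and Zfp334 were most like Kitl, Virma, Thoc2 and Dctn4 most like Flt3, and Scamp4, Pter and Hmgcs1 most like Csf1. This is a description, and n = 6 livers is few for 12673 candidates.

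The promoters of the 10 genes, where a window was at hand, were searched for letters known from myeloid factors. RefSeq windows of 250 bases before to 50 bases after the start (GRCm38.p6) were at hand for 7 of them, of which Csf2ra, Csf3r and Kit had been called higher, and Csf1r, Csf2rb and Csf3 had none. On both strands, GAGGAA, a core bound by PU.1, occurred in Csf2ra, Csf3r and Kit, and in 28.3% of all 32851 promoter windows. TTNNGNAA, a C/EBP-type pattern, occurred in Csf2ra and Csf2, and in 40.7% of all windows. TTCNNNGAA, a STAT-type pattern, occurred in none of the 7 and in 8.30% of all windows. An NF-kB-type site of 10 bases, the capitals in the Csf1 stretch, occurred in Csf1 and in 0.155% of all windows. Stretches are shown for the 3 receptors that hold GAGGAA and for Csf1, with the match in capitals, read 5′ to 3′ on the strand of the gene.
Csf2ra, chr19:61228419-61228478, minus strand: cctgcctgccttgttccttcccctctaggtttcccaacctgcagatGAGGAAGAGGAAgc
Csf3r, chr4:126024561-126024590, plus strand: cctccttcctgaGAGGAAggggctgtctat
Kit, chr5:75574737-75574796, plus strand: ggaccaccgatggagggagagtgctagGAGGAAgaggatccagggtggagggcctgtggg
Csf1, chr3:107760589-107760648, minus strand: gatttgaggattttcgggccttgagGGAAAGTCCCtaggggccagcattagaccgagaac
In Csf2ra the core stood as a tandem pair whose first bases were at -14 and -8 from the start. In Csf3r it began at -86, and in Kit at -223, or at -227 from a second annotated start. All 30 bases of the Csf3r stretch lie in an annotated untranslated region of Csf3r, inside the span given for the gene above. That stretch is therefore transcribed in some annotated transcripts. In Csf1 the NF-kB-type site was read on the opposite strand, at -154. A match describes letters only, and no binding was measured.

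**Figure D4:**
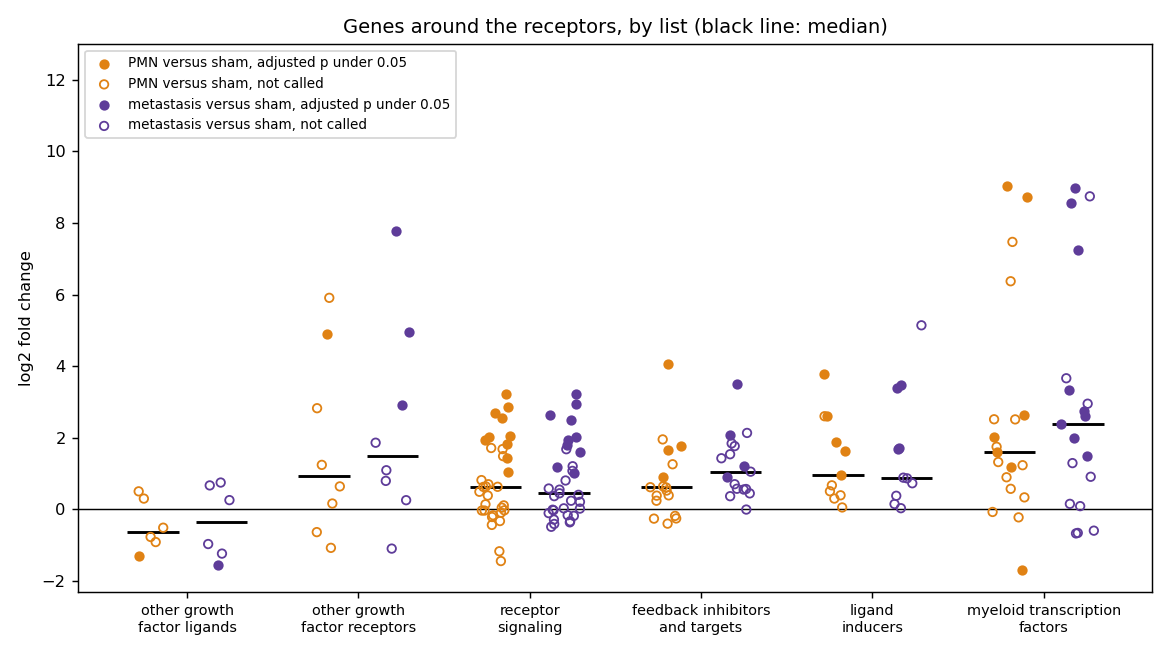
Log2 fold change against sham livers (y axis) of the tested genes of 6 lists around the receptors, with PMN on the left and metastasis on the right of each list. Filled points have an adjusted p under 0.05, and black lines are medians. Among receptor signaling genes, 10 of 33 are filled in each comparison and all 10 lie above 0. Points far above 6 include genes with 0 counts in both sham livers, whose position depends on the prior count.

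The machinery downstream of the receptors rose in part. Of 33 tested genes of receptor signaling (JAK and SRC family kinases, adaptors, PI3K subunits and phospholipases), 10 were higher and 0 lower in PMN livers, and 10 were higher and 0 lower in metastasis livers. For this and the following lists, the shares over all tested genes were 4.92% higher and 2.38% lower in PMN livers, and 6.78% higher and 3.95% lower in metastasis livers. The list's median log2 fold changes were 0.63 and 0.45, beside 0.01 and 0.04 over all tested genes. Pik3r5, a regulatory subunit of the myeloid PI3K gamma, measured 0.887 and 0.498 CPM in sham, 6.11 and 6.84 CPM in PMN, and 4.32 and 4.32 CPM in metastasis livers. It rose by 3.22 and 2.64 on the log2 scale (edgeR, adjusted p = 0.0105 and 0.0137). Plcg2, a phospholipase of immune receptors, rose by 2.86 and 2.95 (adjusted p = 0.0177 and 0.0137), and the SRC family kinase Fgr rose by 2.54 and 2.50 (adjusted p = 0.0370 and 0.0313).

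Of 17 tested feedback inhibitors and targets, 4 were higher and 0 lower in each comparison, with medians of 0.61 and 1.05. Socs3, which blocks signaling by the G-CSF receptor and by gp130, measured 1.40 and 2.22 CPM in sham, 36.1 and 24.1 CPM in PMN, and 9.86 and 31.0 CPM in metastasis livers. It rose by 4.05 ± 0.61 and 3.49 ± 0.60 on the log2 scale (edgeR, adjusted p = 0.0195 and 0.0213). Cbl, a ubiquitin ligase that removes CSF1R and KIT from the cell surface, rose by 1.66 and 1.20 (adjusted p = 0.0171 and 0.0291). Inpp5d, a lipid phosphatase of blood cells, rose by 1.77 and 2.08 (adjusted p = 0.0302 and 0.0158), and Mcl1, a survival factor of neutrophils, rose by 0.91 and 0.89 (adjusted p = 0.0441 and 0.0381).

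Genes that can induce colony stimulating factors formed a further list, of which 5 of 11 tested genes were higher in PMN livers and 4 in metastasis livers, with 0 lower and medians of 0.96 and 0.89. Il1b measured 0.320 and 0.860 CPM in sham, 11.9 and 4.45 CPM in PMN, and 8.31 and 4.93 CPM in metastasis livers. It rose by 3.78 and 3.47 on the log2 scale (edgeR, adjusted p = 0.0316 and 0.0303). Il1a rose by 2.60 and 3.39 (adjusted p = 0.0147 and 0.00663), and the Toll-like receptor genes Tlr2 and Tlr4 rose in both comparisons by 1.64 to 1.88.

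Among 6 tested genes of other growth factor ligands, Cxcl12 was the 1 gene called, and it was lower. Cxcl12, which holds CXCR4-bearing cells in bone marrow and is also made in liver, measured 320.8 and 354 CPM in sham, 123 and 149.9 CPM in PMN, and 88.9 and 141 CPM in metastasis livers. It fell by 1.30 and 1.55 on the log2 scale (edgeR, adjusted p = 0.0436 and 0.0241). Of 8 other growth factor receptors, 1 was higher in PMN livers, which was Csf2rb2, and 3 were higher in metastasis livers. Those 3 included Csf2rb2 and the CXCL12 receptor Cxcr4, which rose by 2.92 ± 0.65 in metastasis livers (adjusted p = 0.0394). Its change in PMN livers was 2.83 ± 0.65 and narrowly missed the threshold (adjusted p = 0.0510), and the direct difference between the tumor groups was 0.10 (adjusted p = 0.952).

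Of 19 myeloid transcription factors, 6 were higher and 1 lower in PMN livers, and 9 were higher and 0 lower in metastasis livers, with medians of 1.61 and 2.39. Spi1, which encodes PU.1, measured 2.61 and 2.67 CPM in sham, 9.32 and 12.2 CPM in PMN, and 14.9 and 12.9 CPM in metastasis livers, and it rose by 2.02 and 2.39 (edgeR, adjusted p = 0.0127 and 0.00698). Runx1, a factor of blood progenitors, rose by 2.63 and 3.33 (adjusted p = 0.0279 and 0.0133). Cebpe, a factor of granule formation in neutrophil precursors, had 0 counts in both sham livers, 0.789 and 2.60 CPM in PMN livers, and 2.51 and 0.736 CPM in metastasis livers. Cebpa, which hepatocytes also express, fell by 1.70 in PMN livers (adjusted p = 0.0423), from 168 and 271 CPM in sham to 57.7 and 77.7 CPM. In metastasis livers it measured 172 and 106 CPM, with 1 liver inside the sham range, and its change of -0.66 was not called (adjusted p = 0.258).

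Markers of the cells known to carry these receptors moved with them, and their part in the results above was not tested. Of 20 neutrophil markers, one of which is Csf3r, 18 were higher in PMN livers and 19 in metastasis livers. Their summed TPM was 10.8 and 15.2 in sham livers, 1034 and 2162 in PMN livers, and 3336 and 1504 in metastasis livers, and 8 of the 20 were at 0 counts in both sham livers, among them Mpo, Elane and Camp. Of 10 Kupffer cell markers, 7 were higher in each comparison, and the list summed to 188.8 and 191.8, 711 and 927, and 407 and 823 TPM. Clec4f, the defining marker, was at 76.8 and 76.8 CPM in sham, 265 and 355 CPM in PMN, and 163 and 318 CPM in metastasis livers. Of 19 monocyte and macrophage markers, one of which is Csf1r, 11 and 10 were higher, and the list summed to 304 and 292, 971 and 1272, and 908 and 1424 TPM. In these 3 lists 0 genes were lower.

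Marker lists for the cells usually marked by Kit and Flt3 gave 1 or 2 higher genes each, of 2 to 14 tested. Whether they differed from the lists above was not tested. Of 14 dendritic cell markers, one of which is Flt3, 1 was higher in each comparison, the integrin gene Itgae, beside 4.92% and 6.78% of all tested genes. The list's median log2 fold changes were 0.79 and 1.02 (0.68 and 0.87 without Flt3), whereas it summed to 485 and 424 TPM in sham livers, 263 and 300.5 TPM in PMN livers, and 181 and 294 TPM in metastasis livers. The list holds Bst2 and Dpp4, which other cells also express and which measured 148.8 and 137 CPM on average in sham, 102 and 99.6 CPM in PMN, and 91.8 and 84.1 CPM in metastasis livers, without a call. Itgae is also known from cross-presenting dendritic cells and from T cells. Clec9a and Xcr1, further markers of cross-presenting dendritic cells, were not called: Clec9a was at 3.06 and 1.68 CPM in sham, 4.35 and 8.45 CPM in PMN, and 3.67 and 4.91 CPM in metastasis livers, and Xcr1 was at 0.567 and 0.566 CPM in sham, 0.255 and 0.433 CPM in PMN, and 0.292 and 0.687 CPM in metastasis livers. Of 11 mast cell markers, 7 were not listed and 2 were tested. Cpa3, the mast cell carboxypeptidase, was at 0 in both sham and both metastasis livers and at 0.204 and 0.031 CPM in PMN livers. Ms4a2 was at 0 and 0.045 CPM in sham, 0.102 and 0.309 CPM in PMN, and 0.146 and 0 CPM in metastasis livers. Hdc, which makes histamine, was higher in both comparisons, by 1.62 and 1.67 on the log2 scale (edgeR, adjusted p = 0.0315 and 0.0230). Gata2, the other tested gene, was not called. It was at 0 and 0.385 CPM in sham, 1.12 and 1.14 CPM in PMN, and 1.20 and 1.86 CPM in metastasis livers. Of 12 tested progenitor markers, one of which is Kit, 2 were higher and 1 was lower in each comparison, and the lower gene was Hlf, which hepatocytes also express. The progenitor list had median log2 fold changes of 1.15 and 2.11 (1.03 and 2.22 without Kit), and it summed to 28.7 and 27.0, 18.3 and 20.3, and 23.3 and 43.9 TPM.

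Genes of other liver cells were measured in the same fit. Endothelial cells are among the known sources of KITL, and of their 14 markers 8 were higher in PMN livers and 6 in metastasis livers, and the list summed to 85.4 and 91.7, 188 and 205, and 225 and 156 TPM. Of 14 stellate cell and fibroblast markers, 0 were called in PMN livers and 5 were higher in metastasis livers. Of 9 tested cholangiocyte and epithelial markers, 0 were called in PMN livers and 2 were higher in metastasis livers, Sox9 by 2.12 and Krt18 by 1.21 on the log2 scale (edgeR, adjusted p = 0.0491 and 0.0400), and the list of 12 summed to 306 and 367 TPM in sham, 388 and 417 TPM in PMN, and 649 and 630 TPM in metastasis livers. Krt20, an intestinal keratin gene of that list, was at 6.13 CPM in metastasis 2 and at 0 in the other 5 livers. Of 11 hepatocyte markers, 1 was higher and 1 lower in each comparison, and their summed level was 118692 to 165475 TPM over the 6 livers.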

How the data were processed

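Bulk RNA of 6 livers was analyzed. Per the labels and the study's methods, reads were aligned to mm10 with HISAT2 2.1.0 and uniquely mapped reads were counted on exons with featureCounts (Subread 2.0.6). The annotation and strand setting are not given in the sources used here. The authors deposited raw counts per gene, and TPM values calculated from them, for 20140 genes. All columns were matched to livers by name. The design called for protein sequences, which were not used here, so nucleotide sequences of GENCODE M21 and RefSeq promoters stood in for them.

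Counts were tested with edgeR 4.0.16 (R 4.3.3; TMM, filterByExpr with a minimum count of 10, quasi-likelihood test, 6 livers in 1 fit, 16370 genes tested). SE is the log2 fold change divided by the square root of F. Log2 CPM for correlations used a prior count of 2. The procedure was also run on simulated data with the same spread in every group. The real groups differed in spread, so that run does not show how the test behaved on these livers. The genes and lists were chosen with earlier results of these data known. Named genes were all 10 members, Csf2rb2, Il34 and Flt3l, up to 4 called genes per list with the largest change at a mean of at least 1 CPM, and the 3 genes most correlated with each member. Not all of them are reported. Markers named with levels only, such as Clec4f, Clec9a, Xcr1 and Cpa3, and the overlapping gene Hmgxb3 were chosen outside this rule. Alternatives were DESeq2 1.42.0, 2 other filters, 2 other scalings, limma 3.58.1 on log2(TPM + 1) and log2(TPM + 0.1), a robust spread, only the compared groups, a replicate block, and each liver left out.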

Additional observations from a re-analysis of the deposited data

How the results depend on the processing

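No result turned its direction while called. In PMN against sham livers, the count of 5 higher genes became 3 with library size without TMM, 3 with limma on log2(TPM + 1) and 3 with limma on log2(TPM + 0.1), and lay between 0 and 7 with each liver left out. In metastasis against sham livers, the count of 4 lay between 0 and 5 with each liver left out. The groups without a second liver were then assumed to vary like the others. Without TMM the median of all genes shifted to -0.25 and -0.23, and relative to it Csf2ra changed by 1.78 and 1.45 and Kit by 1.92 and 1.53 on the log2 scale (adjusted p = 0.0572, 0.0819, 0.0507 and 0.0749). Calls of Csf2rb, Csf3r and Csf1r held under all alternatives that kept every liver. Csf1r was lost in PMN livers without either PMN liver, and Csf3r without the second.

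The replicate number gave no sign of pairing the livers. For each gene, the difference between the replicates of a group was taken, and these differences were correlated over genes between groups. The correlations were -0.03 for sham and PMN, 0.08 for sham and metastasis, and 0.04 for PMN and metastasis livers. With the replicate block, 4 genes were higher in each comparison, Csf2ra was lost in both (1.77, adjusted p = 0.0526 in PMN livers), Kit was gained in metastasis livers, and 673 and 259 genes of the whole table were higher and lower in PMN, 954 and 553 in metastasis livers. With only the compared groups in the fit, Kitl and Flt3 were gained in PMN livers (adjusted p = 0.0156 and 0.0374), and calls over the whole table were 2548 higher and 2223 lower in PMN, 276 and 116 in metastasis livers. With DESeq2, these were 1709 and 1110, and 2065 and 1465, Kitl was gained in both comparisons and Kit in metastasis livers.

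Mean receptor shares by CPM, which leaves out gene length, were in sham livers 70.8% for Csf1r, 9.98% for Csf2ra, 8.37% for Csf2rb, 4.89% for Csf3r, 0.847% for Flt3 and 5.08% for Kit, in PMN livers 62.2% for Csf1r, 5.58% for Csf2ra, 21.09% for Csf2rb, 7.30% for Csf3r, 0.583% for Flt3 and 3.29% for Kit, and in metastasis livers 63.3% for Csf1r, 5.42% for Csf2ra, 19.1% for Csf2rb, 8.65% for Csf3r, 0.432% for Flt3 and 3.11% for Kit. The cause of these losses and gains was not tested. Flt3 had the lowest counts of the 8 genes, 8 to 41 per liver.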

Other observations

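Erythroid genes, some of which answer to KIT and erythropoietin signaling in red cell precursors, were outside the comparisons above. Of 11 tested erythroid precursor markers, 0 were called in PMN livers and 6 were higher in metastasis livers. Their summed TPM was 790 and 1342 in sham, 1183 and 804 in PMN, and 4336 and 3334 in metastasis livers. Tal1, a factor of early erythroid cells, rose by 2.34 ± 0.50 in metastasis livers (edgeR, adjusted p = 0.0360), and the globin gene Hbb-bs rose by 2.19 ± 0.36 (adjusted p = 0.0198). In the direct comparison of metastasis with PMN livers, 0 of these 11 genes were called, with a median log2 difference of 2.09, so a difference between the tumor groups was not shown. Epo, which encodes erythropoietin, had 0 counts in all sham and PMN livers and was at 0.846 and 0.098 CPM in the metastasis livers.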
